A study of Saccharomyces cerevisiae with 262 samples.

Results

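These results describe haploid yeast segregants that had the highest and the lowest FUS1 transcript from a cross of 2 parents, the laboratory strain BY4716, called BY here, and RM11-1a, a wild isolate from a vineyard, called RM. The strains were chosen by their own FUS1 level. FUS1 encodes a membrane protein of cell fusion that is made at low levels until a mating partner is sensed. No label names an added pheromone, so its level is taken here as basal, although the labels name no growth conditions. The 110 ranked segregants, all of the cross but 3, were sorted by FUS1, and the highest 36 (the high group) were set against the lowest 36 (the low group), with the remaining 38 as the middle group. The strains 21-1-d, 22-5-d and 23-2-d were left out by the rule; the correlation across probes between their 2 arrays was 0.080, 0.156 and 0.155, against 0.371 to 0.899 in the ranked strains.

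The series holds 131 dye-swap pairs of 2-colour arrays in all: 1 pair for each segregant, 6 pairs for BY, and 12 pairs under 6 replicate numbers for RM. Every array compared total RNA of a strain with pooled reference RNA from BY4716. BY4716 is of mating type alpha and lacks LYS2, whereas the RM11-1a parent is of mating type a and its laboratory derivatives lack LEU2 and URA3; each segregant inherited some mixture of these alleles. The labels name no growth conditions and do not say whether replicates were separate cultures. The p-values of RM against BY then cover no more than the spread among these replicates, which may be technical. Those of the segregants cover the spread among different strains with 1 dye-swap pair each. In that spread, strain differences and technical differences cannot be told apart. A segregant array measured 3769 to 6581 of 7085 probes, with a median of 6341, and the number of arrays limits the precision.

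Haploid yeast cells of mating type a and alpha signal to each other with peptide pheromones. A pheromone binds a receptor (Ste2 in a cells, Ste3 in alpha cells), which releases the G-protein beta-gamma dimer (Ste4 and Ste18) from its alpha subunit Gpa1; a kinase cascade on the scaffold Ste5 then activates the MAP kinases Fus3 and Kss1, which relieve the transcription factor Ste12 of its inhibitors Dig1 and Dig2. Ste12 switches on genes for agglutination, cell fusion, nuclear fusion and G1 arrest, and also for brakes on the pathway such as SST2. The pathway has a low activity without pheromone, and FUS1 is a widely used readout of it.

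All values are log2 ratios of a strain's own RNA over the reference, and differences between groups are in log2 units. The deposited files do not state this direction, which is likely rather than certain: it was taken from LEU2, URA3, LYS2, HO and the mating-type genes, whose own direction is therefore no independent evidence. FUS1, which ranked the strains, was 0.06 at the lowest, 0.57 at the median and 1.70 at the highest in the high group. In the middle group it was −1.47, −0.54 and 0.06, and in the low group −3.06, −1.82 and −1.47. The values formed a continuous series with no gap at either boundary: 17-5-b entered the high group at 0.059 and 21-4-d stayed outside at 0.058, while 22-3-b entered the low group at −1.471 and 24-1-d stayed outside at −1.470. Ranked on each of the 2 arrays of a pair by itself, 35 high strains on either array and 33 or 36 low strains stayed in their group, and none crossed to the opposite one. These values chose the groups and are given without a test.

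**Figure D1:**
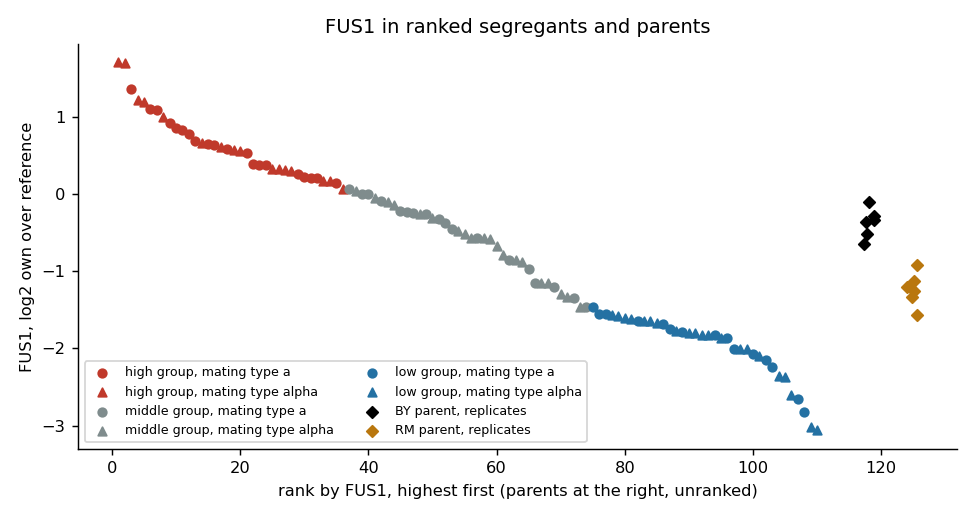
FUS1 (log2 own over reference, y axis) in 110 segregants ordered by rank (x axis), with colour for the group, circles for mating type a, triangles for alpha, and diamonds at the right for the 6 replicates of each parent. The segregants run from 1.70 to −3.06 without a gap and extend above BY and below RM.

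The parents, which the ranking did not use, differed in FUS1. Its level was −0.65, −0.35 and −0.10 (lowest, median and highest of 6 replicates) in BY and −1.57, −1.23 and −0.92 in RM. No RM replicate reached a BY replicate, and RM was lower than BY by 0.86 log2 units (RM minus BY −0.86, SE 0.106, n = 6 and 6, limma adjusted p = 1.73e-05; with the replicate number as a block, 0.00035). Of the 110 ranked segregants, 42 lay above every BY replicate and 33 below every RM replicate, while 18 lay between the parental means.

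Both mating types and both alleles of the segregating markers were present in each group. Mating type was read from STE2, the receptor for alpha-factor, with a strain called a above 2.3. The high group held 20 a and 16 alpha strains, the middle group 18 and 20, and the low group 15 and 21. Strains with LEU2 nearer BY numbered 17 of 36 in the high and 17 of 36 in the low group, which matters because LEU2 lies 8 places from FUS1 on chromosome III. URA3 was nearer BY in 21 of 36 high and 15 of 36 low strains, and LYS2 in 22 of 33 and 16 of 36. The mating type of 9 ranked strains was unclear, 4 in the high, 4 in the middle and 1 in the low group: in 8 of them STE2 and STE3 gave different types, and 23-3-d, with the highest FUS1, had no STE2 value and was classed alpha by its STE3 level of 0.90. Most interaction tests below are therefore also given without these strains. So are the differences in alpha strains of SAG1, STE3, MF(ALPHA)1 and AFB1. The mean of 8 haploid-specific genes lay between −0.47 and 0.48 over the ranked strains.

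The comparison of high with low FUS1 asked which other transcripts differ along with basal FUS1, with mating type as a covariate. Each value is a bulk culture's, so more expressing cells and more RNA per cell cannot be told apart. The genes with the lowest p-values were those of the pheromone response. Of 6402 probes tested, 587 (9.17%) passed an adjusted p of 0.05 in limma, 298 higher (4.65%) and 289 lower (4.51%) in the high group. Among named genes 532 of 5564 were called (9.56%), with a median absolute difference of 0.22 log2 units. The difference was over 1 log2 unit in 20 genes that rose and 2 that fell, and the median over all probes tested was −0.0172. FUS1 and the other genes come from the same arrays; where FUS1 was taken from one array of each pair and the other genes from its dye-swap partner, 479 and 448 probes were called, of which 362 and 385 were among the 587.

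Of 31 genes listed as induced by pheromone, 30 could be tested (PRM6 could not). Of the 30, 21 (70%) were called higher and none lower, and 9 did not pass the test, beside 9.56% of all named genes called. Their median difference was 0.60 log2 units, beside −0.02 over all named genes. The mean level of the 30 genes was 0.00 at the lowest, 0.27 at the median and 0.74 at the highest in high strains, −0.48, −0.17 and 0.17 in middle strains, and −0.60, −0.39 and −0.13 in low strains. The high and the low group did not overlap in this mean, and the middle group overlapped both. The count of 21 was the same within a strains alone and within alpha strains alone.

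The agglutinin anchor AGA1, which holds the a-agglutinin binding subunit on the wall and is induced in both mating types, had the largest difference of the called genes. It was −1.26 at the lowest, 1.03 at the median and 2.35 at the highest in the high group, and −3.0, −2.29 and −0.90 in the low group. The ranges met only at their ends, and AGA1 was higher by 3.12 log2 units (SE 0.158, n = 36 and 36, limma adjusted p = 6.42e-27). The adhesin FIG2, a wall protein of mating cells, was −0.54, 0.48 and 2.05 in the high group and −1.03, −0.77 and −0.27 in the low group. It rose by 1.37 log2 units (SE 0.117, adjusted p = 2.61e-15).

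SST2 encodes the GTPase-activating protein that turns Gpa1 off and so desensitises the pathway. Its level was −0.26, 0.23 and 1.03 (lowest, median, highest) in the high group and −2.62, −1.23 and −0.52 in the low group. It was the only 1 of 5564 named genes (0.018%) whose high and low groups did not overlap, with a difference of 1.54 log2 units (SE 0.0897, limma adjusted p = 1.21e-23). FAR1, an inhibitor of the G1 cyclin-dependent kinase, was −0.67, 0.44 and 1.23 in high strains and −1.56, −0.58 and −0.12 in low strains. FAR1 thus overlapped between groups, and it rose by 1.05 log2 units (SE 0.0787, adjusted p = 5.98e-18).

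Of the remaining listed genes, several act in cell fusion or nuclear fusion. KAR4, a transcription factor that acts with Ste12 on karyogamy genes, was −0.46, 0.57 and 1.53 in high strains and −2.08, −0.83 and −0.24 in low strains, a difference of 1.30 log2 units (SE 0.0877, adjusted p = 3.14e-20). KAR5, a nuclear membrane protein of karyogamy, was higher by 0.75 (SE 0.0536), PRM1, a protein of plasma membrane fusion, by 1.01 (SE 0.101), and FUS2, which acts in cell fusion, by 0.58 (SE 0.0623). FIG1, a membrane protein of calcium entry during mating, was higher by 1.22 log2 units (SE 0.143), and its levels of −0.69 to 2.70 in the high group overlapped those of −1.46 to 0.38 in the low group. The pheromone-regulated membrane protein genes PRM5, PRM2 and PRM4 were higher by 1.25, 0.63 and 0.41. Among regulators of shape and cell cycle, AFR1, which acts in receptor signalling and projection formation, rose by 0.78, the Cdc42 effector GIC2 by 0.45, the Pho85 cyclin PCL2 by 0.45 and the chitin synthase CHS1 by 0.41. ECM18 rose by 0.41.

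The 9 listed genes that did not pass the test were FIG4, CIK1, MSG5, PRM3, PRM7, PRM8, PRM9, PRM10 and ERG24. Their differences ran from 0.00 in PRM9 and ERG24 to 0.61 in PRM8, whose SE was 0.30. Of those that act in nuclear fusion, CIK1 differed by 0.11 (adjusted p = 0.114) and PRM3 by 0.09 (adjusted p = 0.249).

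**Figure D2:**
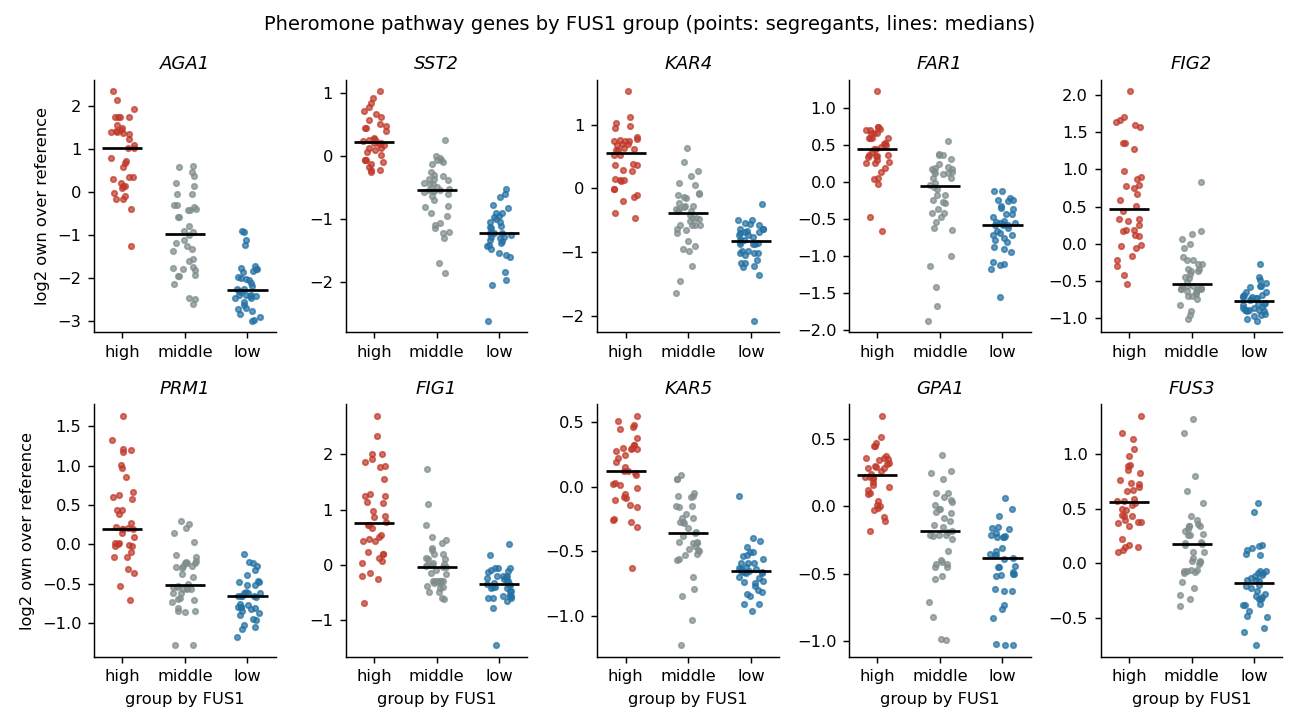
Levels (log2 own over reference, y axis) of 10 pheromone pathway genes in the high, middle and low FUS1 groups (x axis); points are segregants and lines are medians. SST2 separates the high and low groups completely, at −0.26 and above against −0.52 and below, and in each panel the median of the middle group lies between those of the others.

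The median difference of 22 signalling components was 0.07 log2 units, and 36.4% of them were called, beside 9.56% of all named genes. Of the 22, 14 were not called, 1 was called lower and 7 were called higher. Besides SST2 and FAR1 these were the G-protein alpha subunit GPA1, the MAP kinase FUS3, the transcription factor STE12, the beta subunit STE4 and the Ste12 inhibitor DIG1. GPA1 was −0.18, 0.23 and 0.67 (lowest, median, highest) in the high group and −1.03, −0.39 and 0.06 in the low group, a difference of 0.65 log2 units (SE 0.0562, limma adjusted p = 2.95e-15). FUS3 was 0.10, 0.56 and 1.35 in the high group and −0.75, −0.18 and 0.55 in the low group, a difference of 0.75 (SE 0.0700, adjusted p = 8.95e-14). Both genes are also among the listed targets of the pathway, as is STE12, which was higher by 0.36. STE4 was higher by 0.26 and DIG1 by 0.23. STE50, an adaptor of the kinase Ste11, was lower by a small amount, −0.10 log2 units (adjusted p = 0.0478), a call that ended in 12 of 17 other settings that compare groups over both mating types. The scaffold STE5 (0.05), the kinases STE11 (0.03), STE7 (−0.06), STE20 (−0.02) and KSS1 (0.06), and the gamma subunit STE18 (0.09) did not pass the test.

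Ste12 and Tec1 together also drive filamentous growth. TEC1, itself a target of the pheromone pathway, was −0.08, 0.77 and 1.33 in high strains and −0.89, −0.01 and 0.62 in low strains and rose by 0.74 log2 units (SE 0.0888, adjusted p = 1.49e-09). PGU1, a secreted pectin-degrading enzyme of the filamentous programme, rose by 0.39 (adjusted p = 0.000494). The other 9 of 11 listed filamentous growth genes were not called, and the list's median was 0.01. The share called was 18.2%, beside 9.56% of all named genes.

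Of the 7 a-specific genes 4 were called higher in a strains alone, and of the 5 alpha-specific genes all were called higher in alpha strains alone. The interaction of FUS1 group and mating type was called for 16 of 6402 probes (0.25%), which include 14 named genes. Of the 5 widest interactions, 4 were of mating genes and the other was of a gene next to one. The fit in a strains alone called 2.76% of probes and the fit in alpha strains alone 2.63%. In the text below, a difference within a strains compares 20 high with 15 low strains and one within alpha strains compares 16 with 21.

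In alpha strains SAG1, the alpha-agglutinin that binds a cells, was 0.02, 0.74 and 1.81 (lowest, median, highest) in the high group, −5.61, −0.82 and 0.45 in the middle group and −5.84, −2.57 and −1.38 in the low group. The high and low alpha strains did not overlap. The difference was 3.42 log2 units in alpha strains (SE 0.281, limma adjusted p = 2.29e-11), against 0.18 in a strains (adjusted p = 0.497). Without the strains of unclear mating type it was 3.22 in alpha strains (limma adjusted p = 1.61e-12). The interaction, a minus alpha, was −3.24 (adjusted p = 6.52e-12), and −2.96 without the strains of unclear mating type, in newly ranked groups of 33 strains each (adjusted p = 3.49e-12). The pheromone gene MF(ALPHA)2 rose by 2.11 in alpha strains (SE 0.216, adjusted p = 5.64e-09), whereas in a strains its difference was −0.73 and did not pass the test (adjusted p = 0.396); its interaction was −2.85 (adjusted p = 7.28e-05), and −3.05 without the unclear strains. In alpha strains alone, the a-factor receptor STE3 rose by 1.43 (adjusted p = 0.00282), MF(ALPHA)1, the main alpha-factor gene, by 1.02 (adjusted p = 0.0175) and AFB1, an a-factor barrier, by 0.92 (adjusted p = 0.000754). Without the unclear strains these were 1.16, 0.82 and 0.78 and still passed. Their interactions did not pass the test (adjusted p = 0.311, 0.371 and 0.564); without the unclear strains that of STE3 did, at −1.80 (adjusted p = 0.000588), and the others did not (adjusted p = 0.156 and 0.37).

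In a strains AGA2, the binding subunit of a-agglutinin, was 1.89, 4.86 and 6.50 in the high group and 0.06, 2.73 and 3.65 in the low group. The ranges overlapped, and AGA2 rose by 2.14 log2 units (SE 0.368, limma adjusted p = 0.000256), against 0.12 in alpha strains (adjusted p = 0.482), with an interaction of 2.02 (adjusted p = 0.000794), or 2.27 without the unclear strains. BAR1, the protease that destroys alpha-factor, was 4.61, 5.27 and 6.26 in high a strains and 2.42, 3.73 and 4.69 in low a strains. It rose by 1.63 (SE 0.177, adjusted p = 5.49e-08), with an interaction of 1.60 (adjusted p = 0.00144), or 1.46 without the unclear strains. ASG7, an a-specific regulator of Ste4, rose by 1.10 in a strains (interaction 1.14, adjusted p = 3.78e-05, and 1.11 without the unclear strains).

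STE2 rose by 1.02 in a strains (interaction 1.03, adjusted p = 0.0203, and 0.99 without the unclear strains), but STE2 also assigned the mating type, so its range within a type was limited by that choice. The a-factor genes MFA1 and MFA2 and the a-factor exporter STE6 were higher by 1.00, 0.58 and 0.26 in a strains, and these differences did not pass the test (adjusted p = 0.14, 0.472 and 0.458). Over both mating types together, 4 of 7 a-specific and 2 of 5 alpha-specific genes were called higher and none lower. These are 57.1% and 40%, beside 9.56% of all named genes. Without the mating type covariate the calls of STE2, BAR1, SAG1 and AFB1 ended, that of AFB1 also ended with mating type taken from STE3, that of BAR1 under quantile normalization, and that of STE2 under quantile normalization and with FUS1 from Cy5 and other genes from Cy3 arrays.

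**Figure D3:**
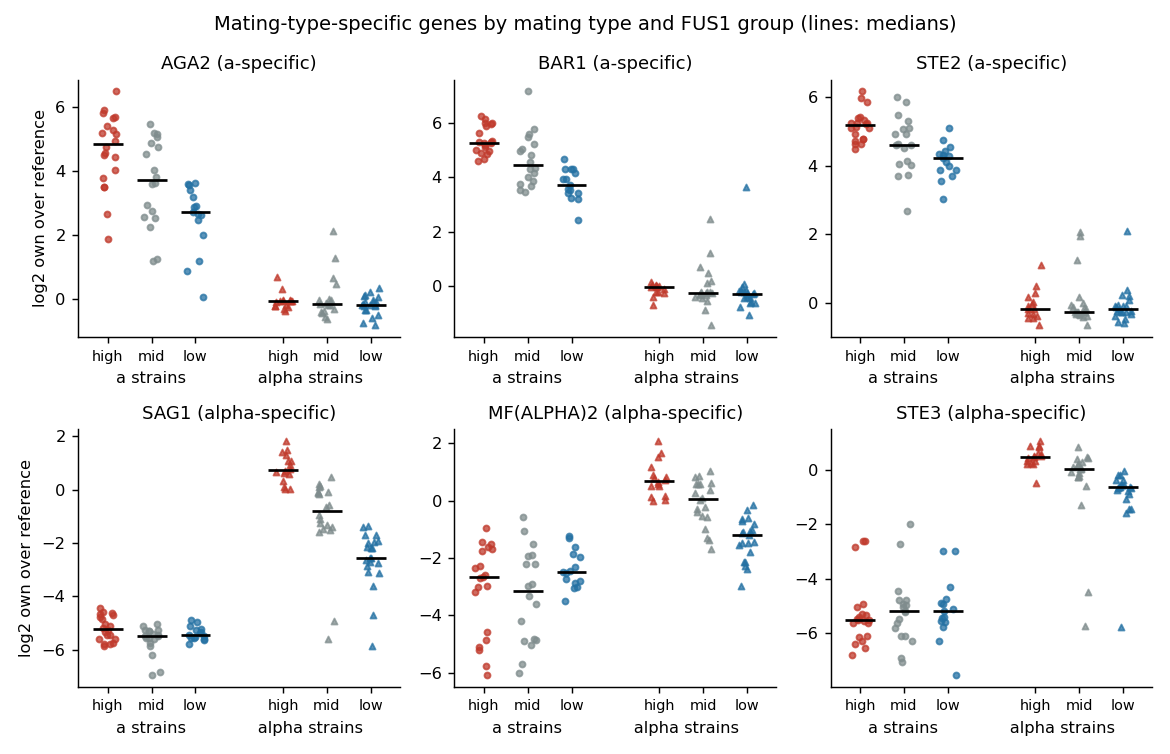
Levels (log2 own over reference, y axis) of 3 a-specific genes (AGA2, BAR1 and STE2, top) and 3 alpha-specific genes (SAG1, MF(ALPHA)2 and STE3, bottom) by mating type and FUS1 group (x axis); points are segregants and lines are medians. In alpha strains the SAG1 median falls from 0.74 in the high to −2.57 in the low group, while in a strains it lies at −5.22 and −5.44. The alpha points of SAG1 at −5.61 (middle) and −5.84 (low) are 7-5-d and 13-1-a. They were classed alpha by STE2 just under the cut, but their STE3 and SAG1 lie within the ranges of a strains.

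Among the genes with an interaction, 3 lie directly beside a mating-type gene. LIF1, which acts in DNA end joining, lies next to MF(ALPHA)2 on chromosome VII, and in alpha strains it was −0.02, 0.84 and 2.13 in the high and −2.11, −1.31 and −0.49 in the low group. It rose there by 2.35 log2 units (SE 0.176, limma adjusted p = 2.08e-12), against −0.16 in a strains, with an interaction of −2.51 (adjusted p = 3.14e-14; −2.37 without the unclear strains). GYP8, beside STE2 on chromosome VI, rose by 0.65 in a strains (adjusted p = 1.62e-06; interaction 0.73, adjusted p = 3.78e-05, and 0.70 without the unclear strains). BST1, on the other side of STE2, differed by 0.01 between groups over both mating types (adjusted p = 0.928). SNL1, beside BAR1 on chromosome IX, went the other way and fell by 0.62 in a strains (limma adjusted p = 1.07e-06). Its interaction was −0.52 (adjusted p = 0.0409). Without the strains of unclear mating type it was −0.51 and no longer passed (adjusted p = 0.134). SNL1 and BST1 were named after their values were seen. Within 10 places, 2 of 19 genes were called between high and low around MF(ALPHA)2, 3 of 19 around STE2 and 3 of 19 around BAR1. These are 10.5%, 15.8% and 15.8%, beside 9.56% of all named genes. Probe sequences and strands were not used here, so signal from a gene and from its neighbour cannot be told apart.

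HMRA2, HMLALPHA2 and MATALPHA2 had interactions of −0.75, −0.65 and −0.75 (−0.69, −0.55 and −0.66 without the unclear strains) and rose by 0.60, 0.50 and 0.56 in alpha strains. The last 2 were named after their values were seen. MATALPHA2 encodes the alpha2 repressor, and the silent loci carry near-identical copies, and a probe cannot tell them apart.

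The middle group tested whether the same genes follow FUS1 in segregants that the comparison of high with low did not use. Across its 38 strains the slope on FUS1 was called for 6 of 6445 probes (0.0931%), and all 6 were pheromone-response genes with positive slopes: AGA1, SST2, KAR5, FAR1, PCL2 and KAR4. Where a value was needed on both arrays, or FUS1 came from Cy5 and the other genes from Cy3 arrays, the spindle-orientation gene KAR9 was called with a negative slope (−0.83 and −0.81), and KAR5 and KAR4 were not called. PCL2 was also not called with FUS1 from Cy5 and the other genes from Cy3 arrays. KAR9 was named after its value was seen. AGA1 changed by 1.64 log2 units per log2 unit of FUS1 (limma adjusted p = 5.81e-08), FAR1 by 0.78 (adjusted p = 0.0184), SST2 by 0.73 (adjusted p = 3e-04) and KAR4 by 0.61 (adjusted p = 0.0312). PCL2 and KAR5 had slopes of 0.45 (adjusted p = 0.0237) and 0.43 (adjusted p = 0.00141). Of the 30 tested pheromone-induced genes 28 had a positive slope, the exceptions being CIK1 (−0.10) and PRM10 (−0.23), and the median slope was 0.22, beside −0.01 over all named genes. Slopes of GPA1 (0.39, adjusted p = 0.13) and FIG2 (0.43, adjusted p = 0.0934) did not pass the test. That of GPA1 passed where a value was needed on both arrays (0.47, limma adjusted p = 0.0128).

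Signs in the middle group were also compared for all genes called between high and low. Of these 532 named genes, pheromone genes included, 275 (51.7%) had a middle-group slope of the same sign. The share was 44.1% over all 5552 named genes with a slope. Small slopes could be missed, since the called genes had a median absolute difference of 0.22 between high and low. On simulated data the middle fit found 77% of changed probes at a slope of 0.5, and smaller slopes were not simulated. For amino acid synthesis the high-minus-low median was 0.30 log2 units. In that list 6 of 25 genes (24%) were called higher and none lower, beside 9.56% of all named genes called. Among the 6 were ARG3 (1.40), ARG1 (1.20), ARG4 (0.72) and ARG8 (0.65) of arginine synthesis. In the middle group none of the 25 had a positive slope, and the median slope was −0.26, beside −0.01 over all named genes. For respiration the median difference was −0.08 with none of 32 called, and the median slope was 0.25. Both lists thus had medians of opposite sign in the comparison of high with low and in the middle group. No single slope of either list passed the test.

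**Figure D4:**
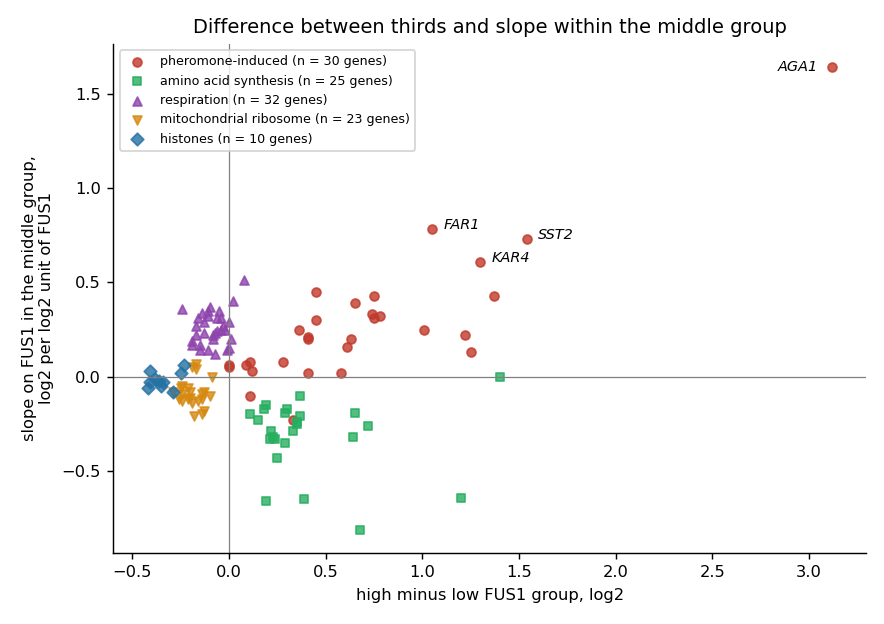
Difference between the high and low FUS1 groups (log2, x axis) against the slope on FUS1 in the middle group (log2 per log2 unit of FUS1, y axis) for the genes of 4 lists and for the histone genes; each point is a gene. Pheromone-induced genes lie at the upper right, with AGA1 at 3.12 and 1.64, whereas amino acid synthesis genes lie to the right of 0 with slopes at or below 0.

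Other gene groups differed by small amounts. Of 23 mitochondrial ribosome genes, 6 were called lower and none higher, among them MRPL11 (−0.29), MRPS5 (−0.25), MRPL16 (−0.24) and MRP1 (−0.20), and the median was −0.19. Among 12 genes of G2/M and M/G1, the Polo kinase CDC5 (−0.26), the cyclin CLB1 (−0.25), the replication initiator CDC6 (−0.18) and the bud-site protein BUD4 (−0.13) fell and the replicative helicase subunit MCM3 (0.23) rose. Of 14 G1/S genes, the Wee1 kinase SWE1 (−0.26) was the only 1 called. The shares called in these 3 lists were 26.1%, 41.7% and 7.14%, beside 9.56% of all named genes. The call of CDC6 ended in 8 of 17 other settings that compare groups over both mating types, and that of CLB1 in 3. BUD4 was named after its values were seen.

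The 8 core histone genes were all called lower in the high group, beside 4.51% of all probes tested. They were chosen as a group after the results were seen, so this count is no independent evidence. Their differences ran from −0.42 in HHF1 (limma adjusted p = 0.00037) to −0.29 in HHT2 (adjusted p = 0.00298). HHF1 was −1.55, −0.28 and 0.10 in high strains and −0.83, 0.03 and 0.53 in low strains, so the groups overlapped widely. Their middle-group slopes lay between −0.08 and 0.03.

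No gene was called in 7 lists with a bearing on growth and nutrition, which were the cytosolic ribosome (17 tested), respiration (32), glycolysis (17), sulfur amino acids (16), pyrimidines (9), phosphate (13) and iron (12). At an unadjusted p under 0.05 in limma, 1646 of all 6402 probes tested passed. At that threshold none passed in the cytosolic ribosome or respiration lists. In the other lists 1 passed for sulfur amino acids, 1 for phosphate, 2 for pyrimidines, 2 for iron and 4 for glycolysis. None of 11 daughter-cell separation genes was called, and none passed unadjusted. A single gene was called in the cell wall list (PIR1, −0.16), among leucine genes (LEU3, 0.23), among ergosterol genes (ERG11, −0.46) and among heme and oxygen genes (HAP1, 0.37). In ribosome biogenesis 2 of 23 were called (8.70%), NOC2 (−0.26) and GAR1 (−0.28), and in the stress response 2 of 20 (10%), GSY1 (0.58) and GRE1. These shares, and those of the lists with a single call (4.35% to 10%), are near or below the 9.56% called among all named genes. Of 17 other settings over both mating types, 8 ended the call of PIR1, 8 that of GSY1, 6 that of NOC2, 5 that of GAR1 and 4 that of HAP1.

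GRE1, a hydrophilin of the stress response, had the lowest difference of all called genes at −1.40 log2 units (SE 0.377, adjusted p = 0.0102). It was −1.04, −0.31 and 3.28 in the high group and −1.14, 1.49 and 5.34 in the low group, so the high group lay within the range of the low group, which reached higher. SPS100, a spore wall gene (−1.09), FMP48 (−0.88) and SIP18 (−0.63), which is related to GRE1, followed, and then YNL018C (−0.60), YNL194C (−0.59), YNL195C (−0.58), PDR15 (−0.56), YNL234W (−0.51), CAR2 (−0.48), KNH1 (−0.47) and ERG11. The calls of YNL194C, YNL018C and YNL195C ended in 13 of 17, 11 of 15 and 9 of 16 other settings over both mating types, those of CAR2, PDR15 and SIP18 in 7, 5 and 4 of 17, and those of GRE1, SPS100 and FMP48 in 1 each, a split of all ranked strains at the median. Those of YNL234W, KNH1 and ERG11 passed in every one of these settings.

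For 3 of the genes with a high difference outside the pheromone pathway, the medians lay close together. VEL1 had a difference of 1.68 log2 units (SE 0.426, adjusted p = 0.00598), but its median was −0.13 in the high and −0.33 in the low group, and single strains reached 7.45 in the high, 8.09 in the middle and 2.70 in the low group. ADH4, an alcohol dehydrogenase (1.32), and YOR387C (1.24) had medians of −0.28 and −0.02 in the high and −0.64 and −0.20 in the low group, with high-group maxima of 4.83 and 5.96 and middle-group maxima of 4.23 and 5.94. The same split at the median ended the calls of these 3 genes. The Ty element genes YIL082W-A (1.42), YJL113W (1.32) and YCL019W (0.79) were also called higher; Ty elements exist in near-identical copies, so their probes may have read several.

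Setting these genes against the parents, RM minus BY was called for 52% of 5120 probes, and the parents also differ in mating type and markers. Of 18 pheromone-induced genes with a parental value, 8 were lower and 4 higher in RM. AGA1 was −0.39, −0.31 and −0.16 in BY and −2.80, −2.62 and −2.42 in RM, a difference of −2.33 (limma adjusted p = 2.59e-12), and PRM5 (−1.46), SST2 (−1.13), FIG2 (−0.85), PCL2 (−0.46), PRM3 (−0.36) and GPA1 (−0.17) were lower in RM as FUS1 was. KAR5 was also called lower (−0.47), but the 5 BY values of −0.38 to 0.75 overlapped the 6 RM values of −0.51 to −0.35. Without BY replicate 1 the difference was −0.29 (adjusted p = 0.0115), and without BY replicate 5 the call ended (adjusted p = 0.0518), in alternatives chosen after seeing the data. TEC1 (0.86), AFR1 (0.54), GIC2 (0.47) and FUS3 (0.46), which rose with FUS1 among the segregants, were higher in the parent with the lower FUS1. FAR1 differed by −0.07 between parents (adjusted p = 0.526). STE12 did not pass (0.14, adjusted p = 0.0771) except with the replicate number as a block (0.0243) or without RM replicate 1 (0.18, adjusted p = 0.0293). Over all called named genes with a parental value, 310 of 409 (75.8%) had the sign opposite to RM minus BY, that is they differed between high and low FUS1 as BY differs from RM, beside 2299 of 4366 (52.7%) of all named genes.

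The position of the called genes was read from the gene order of the R64 reference table. Chromosome VIII had the highest share of called genes of the 16 chromosomes, 41 of 262 (15.6%), and the others ranged from 6.97% to 11.9%. Within 10 places of GPA1 on chromosome VIII, 5 of 18 tested genes were called besides GPA1: the ceramide synthase gene LAG1 (0.20), the sorting gene HSE1 (0.12), the mitochondrial carrier gene LEU5 (−0.17), the mitochondrial import gene TIM10 (−0.24) and ERG11 (−0.46), the sterol demethylase. ERG11 was −0.20, 0.40 and 1.42 in high strains and 0.02, 0.96 and 1.65 in low strains, an overlapping difference (SE 0.0901, adjusted p = 0.000207), and it was higher in RM than BY by 1.22. All 4 of these genes with a parental value had the sign opposite to RM minus BY, as 75.8% of all called genes did; for LAG1 the parental difference was −0.04 (adjusted p = 0.492).

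Of 5546 windows of the same width, 215 held at least as many calls as that of GPA1, and the median was 2. The highest count was 9, in the windows of MRP4 on chromosome VIII and of HIR1 on chromosome II. Both windows were picked for their count after the results were seen. Their shares called were 52.9% and 47.4%, beside 9.56% of all named genes. The MRP4 window runs into that of GPA1 and also holds YHL012W (−0.43), ETP1 (0.31), YAP3 (0.30) and SHU1 (0.17). The HIR1 window holds FUS3, the histone genes HTA2 and HTB2 and the Ty genes YBL005W-A and YBL005W-B. SPO11, the meiotic nuclease gene, lies 30 places from GPA1 on chromosome VIII and was higher by 1.03 (adjusted p = 1.25e-07); it was named after its value was seen. Around FUS1 on chromosome III, 3 of 18 genes were called: STE50, RRP7 (−0.21), a ribosome biogenesis gene whose call ended in 7 of 17 other settings, and YCL019W. Around AMN1 on chromosome II, which acts in daughter-cell separation, 2 of 20 were called. The shares around GPA1, FUS1 and AMN1 were 27.8%, 16.7% and 10%, beside 9.56% of all named genes.

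**Figure D5:**
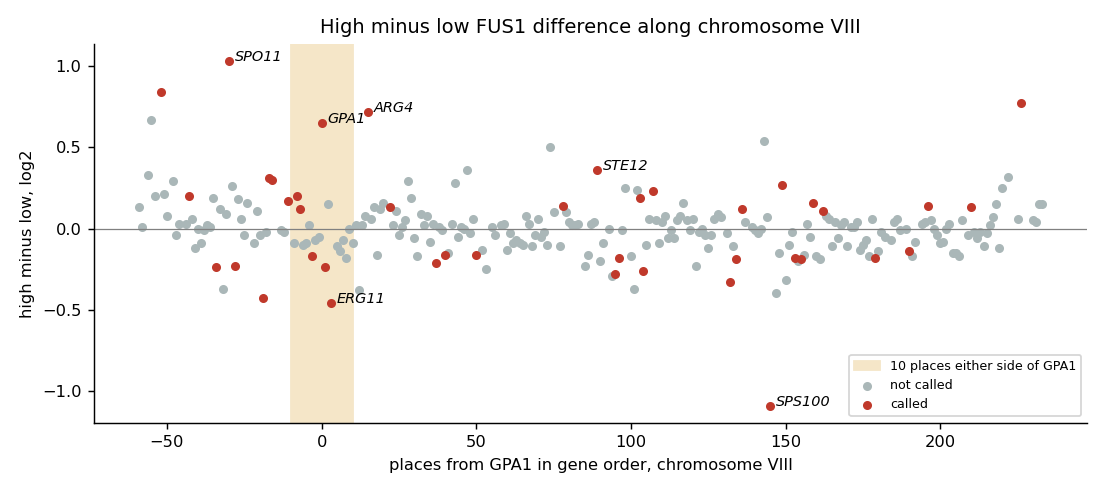
Difference between the high and low FUS1 groups (log2, y axis) for the named genes of chromosome VIII by their place from GPA1 in gene order (x axis); red points were called, grey points were not, and the band marks 10 places either side of GPA1. GPA1 at 0.65 and ERG11 at −0.46 lie in the band, and SPO11 at 1.03 lies 30 places before it.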

How the data were processed

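The authors deposited 1 table of log2 ratios for 262 arrays, each array centred on a mean of 0 (largest absolute array mean 1.16e-08, from the values). For the scanner, the background, the spot filters and the signal over background, the entry is: not given in the sources used here. Base 2 was taken, although no source states it, because 3 values lie above 11.09, the largest natural logarithm that 16 bits allow. The sign was turned to own over reference.

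A pair value was the mean of the 2 arrays of a dye swap, or the single array where the other was missing; RM repeats of a number were averaged. Of 7085 probes, 5645 carried 1 gene symbol, none carried several, and 1440 carried none and are not named; 5622 were found in the reference gene table. For 40 genes with several probes, the probe with the most values stood for the gene. High and low groups were compared with limma 3.58.1 in R 4.3.3 (lmFit, eBayes, Benjamini-Hochberg over all probes tested, adjusted p under 0.05), for probes with a value in at least 80% of each group and with mating type as covariate; FUS1 probes were left out. Further fits were the interaction with mating type, the slope on FUS1 in the middle group, and RM against BY (at most 1 missing replicate per parent). Each mating type was also fitted alone.

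The members, the 25 gene lists and the tests were chosen with earlier results of these data known. The rule for the STE2 covariate does not cover a missing value; the use of STE3 for it was decided after seeing the data. Named genes are all tested members of the pheromone and mating-type lists, up to 4 called members of each other list, the 12 highest and 12 lowest called genes, strain markers, GPA1, AMN1 and called genes within 10 places of FUS1 or GPA1, the 5 lowest p-values of the interaction and the 8 of the middle slope; others are said to have been named after their values were seen. Equal replicate numbers of the parents had correlations of 0.116 to 0.465 in the 6 pairs, but 3 of the 6 numbers correlated more with another number. No source states that equal numbers mark a shared day or culture, so pairing was not established. The RM minus BY values are therefore without a block. Blocked values are given for FUS1 and where the block changes the call of a pheromone gene.

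On simulated data with 200 changed probes, the comparison of high with low found 95% at a change of 0.5 and 100% at 1 log2 unit among 6402 probes, the interaction 94% at 1 and 100% at 2, the middle slope 77% at 0.5 and 97% at 1 among 6445 probes, and RM against BY 86.2% and 97.3% of the 155 changed probes that were tested among 5120. Unchanged probes made up 7.1%, 5.8%, 4.9% and 4.7% of the calls of these fits. The simulated noise was drawn for each probe by itself. These shares therefore do not cover genes that vary together among the real strains, and are not the error rate of the real calls. Alternatives covered the split, the covariates, the dye of the FUS1 array, missing values, centring and the mating types. Python 3.11.15 with numpy 2.4.6, pandas 2.3.3 and matplotlib 3.10.9 was also used.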

Additional observations from a re-analysis of the deposited data

Results flagged for a closer look

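The effect of FUS1 group differed between a and alpha strains by a tested interaction term in limma for 14 named genes, given here as a minus alpha in log2 units. It was positive for AGA2 (2.02), BAR1 (1.60), ASG7 (1.14), STE2 (1.03) and GYP8 (0.73). It was negative for SYN8 (−0.32), SNL1 (−0.52), HMLALPHA2 (−0.65), MATALPHA2 (−0.75), HMRA2 (−0.75), YCR041W (−0.89), LIF1 (−2.51), MF(ALPHA)2 (−2.85) and SAG1 (−3.24). YCR041W lies 2 places from MATALPHA2 on chromosome III. Without the strains of unclear mating type its interaction was −0.83 and no longer passed in limma (adjusted p = 0.0826). That of SNL1 was −0.51 and no longer passed either (adjusted p = 0.134). SYN8, a SNARE protein of vesicle traffic, rose by 0.22 in alpha strains (adjusted p = 0.0155) and was at −0.10 in a strains (adjusted p = 0.371).

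Among 64 groups of parental replicates tested for a sample far from the others, 2 stood out, where chance flags about 5%. CIK1, a kinesin-associated gene, was 0.34 in BY replicate 5 and −0.12 to −0.05 in the other BY replicates. PCL2 was −0.40 in RM replicate 5 and −0.68 to −0.59 in the others.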

How the results depend on the processing

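The comparison of high with low FUS1 was repeated under 20 alternatives, 3 of them chosen after seeing the data. The 587 calls became 312 with a split of all ranked strains at the median, 976 with a slope over all ranked segregants, 177 in a strains alone and 168 in alpha strains alone. The last 2 used fewer strains; for the others the cause was not tested. The remaining alternatives gave 448 to 823. Centring arrays on the median moved the share of higher calls from 50.8% to 59.3%. The pheromone-induced list had 20 to 22 genes called higher and none lower under all 20. Of 77 called named genes, the split at the median ended 27, a strains alone 40 and alpha strains alone 39. Directions turned for STE2 under quantile normalization (−0.19), for STE2 (0.00), ASG7 (−0.04) and GYP8 (−0.08) in alpha strains alone, and for LIF1 (−0.16) and HMRA2 (−0.15) in a strains alone; none of these passed the test there. The interaction gave 11 to 21 calls and the middle slope 4 to 6, of which 1 was negative in 2 alternatives. RM minus BY gave 2805 calls with the replicate number as a block, against 2660, 1570 where both arrays were needed, and 2475 to 2843 without any single replicate (chosen after seeing the data); apart from STE12, the block changed no call of a pheromone gene. Dim or missing spots limit the alpha-specific genes in a strains, since signal over background is not given.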
